A study of Homo sapiens with 18 samples.

Results

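MPS1 (TTK) is a kinase of the spindle assembly checkpoint. Its silencing for 48 h was compared here with a negative siRNA in U251, an established human glioblastoma cell line. The members of the comparison are 4 of the 18 arrays of the study, 2 titled siMPS1 at 48 h and 2 titled siNeg at 48 h. In the siMPS1 group the cells received 2 pmol of siRNA against MPS1, and in the siNeg group a negative siRNA. The study also holds untransfected cells (Control), and each of the 3 groups was measured at 6, 24 and 48 h with 2 arrays per group and time. Total RNA was labelled with biotin (GeneChip IVT Express Kit) and hybridised to Affymetrix human genome arrays. Whether the paired arrays stem from different cultures is not in the labels, so the p-values measure the spread between these arrays, which may be technical. The sequence of neither siRNA is given in the sources used here, and the labels name 1 siRNA against MPS1, so an effect of the siRNA through other transcripts and an effect of losing MPS1 cannot be told apart.

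The spindle assembly checkpoint delays anaphase until every chromosome is attached to the spindle. MPS1 is the kinase that starts its signal at unattached kinetochores, where BUB and MAD proteins then form the inhibitor of the anaphase-promoting complex. Most genes of mitosis are transcribed late in the cell cycle and are repressed in cells that have left it, so their level in a culture depends on how many cells are in G2 and mitosis. In a bulk array a lower share of such cells and less RNA per cell cannot be told apart.

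Signals are given as log2(signal + 3), where the signal is the authors' MAS5 value on its linear scale, and a difference is the siMPS1 mean minus the siNeg mean on that scale, which understates the change of low genes. A gene was called when limma's Benjamini-Hochberg adjusted p over 7828 tested genes was under 0.05. At 48 h, 2284 genes were called (29.2% of those tested). Of these, 1231 were higher in siMPS1 cells (15.7%) and 1053 were lower (13.5%), which became 1064 higher and 1102 lower when each array was centred on its median. The counts of every gene list below stand against these shares of all genes, 15.7% higher and 13.5% lower. The median difference over all genes was 0.03 and the middle 90% of genes lay between -0.62 and 0.66, so most calls were small: 785 called genes differed by at least 1.5-fold and 169 by at least 2-fold (2.16%), 90 higher (1.15%) and 79 lower (1.01%). The 2 groups did not overlap in 2282 of the called genes, nor in 62.7% of all tested genes. With 2 arrays against 2, an exact permutation test of a single gene cannot reach 0.05, and every p below comes from limma's model across all genes and all 18 arrays.

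**Figure D1:**
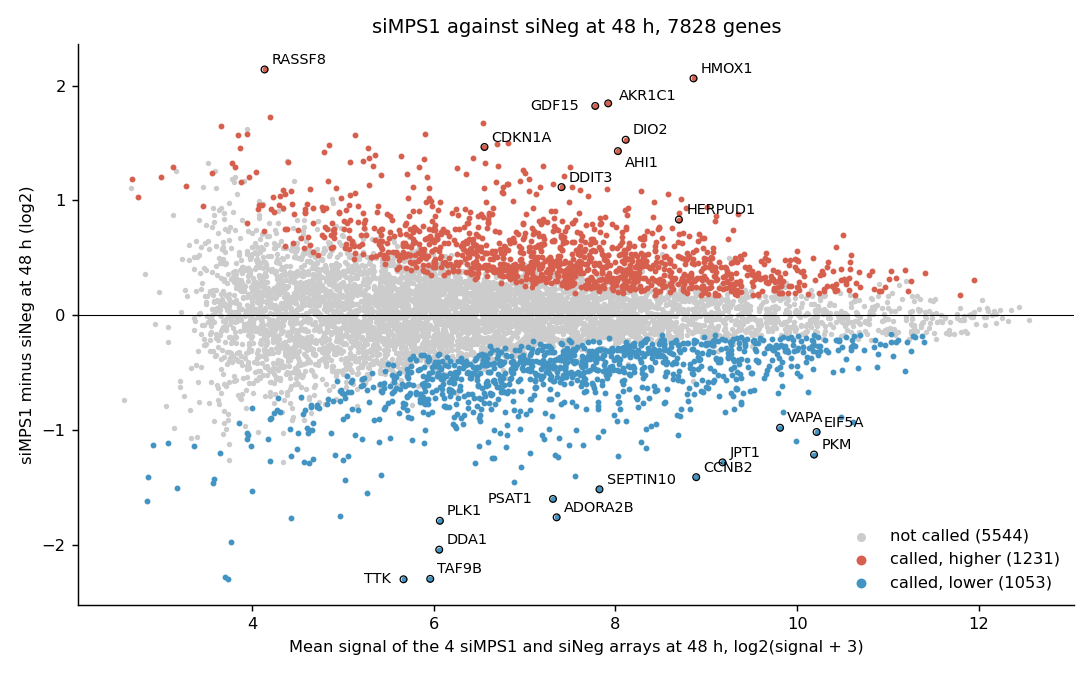
Difference between siMPS1 and siNeg at 48 h (vertical axis, log2) against the mean signal of the 4 arrays (horizontal axis, log2(signal + 3)); each point is 1 of 7828 genes, red and blue where limma's adjusted p was under 0.05. TTK and TAF9B lie lowest among the labelled genes, and RASSF8 and HMOX1 highest.

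The control probe sets set the siMPS1 arrays at 48 h apart from the other arrays. These probe sets read the 3' end, the middle and the 5' end of beta-actin and GAPDH, and a larger 3' to 5' ratio is the usual sign of shorter labelled RNA. On the deposited log2 scale the beta-actin 3' minus 5' difference was 0.87 and 0.92 on the siMPS1 arrays, against 0.10 and 0.14 on the siNeg arrays at 48 h. It was 0.16 and 0.24 in Control cells at 48 h and between 0.15 and 0.43 on the 12 arrays of the earlier times. Both siMPS1 arrays at 48 h thus lay above each of the other 16. As linear ratios these are 1.82 and 1.90 for siMPS1, against 1.07 and 1.10 for siNeg. The beta-actin 3' minus middle difference was 0.39 and 0.36 for siMPS1, against -0.0049 and 0.05 for siNeg. GAPDH moved the same way by less. Its 3' minus 5' difference was 0.29 and 0.30 in siMPS1 cells, against 0.08 and 0.01 in siNeg cells, with -0.03 on each Control array at 48 h and -0.01 to 0.14 on the 12 earlier arrays. The middle of GAPDH gave less separation, with a 3' minus middle difference of 0.27 and 0.22 for siMPS1, against 0.17 and 0.14 for siNeg and 0.11 to 0.23 on the earlier arrays.

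The siNeg arrays at 48 h stood apart in another control. The poly-A spikes dap, lys, phe and thr are bacterial transcripts that carry a poly-A tail and are added to the RNA sample before labelling. The dap 3' probe set read 8.50 and 8.39 on the siMPS1 arrays, against 6.37 and 6.36 on the siNeg arrays, with 8.23 and 8.05 in Control at 48 h and 7.19 to 8.13 on the 12 earlier arrays. For thr the values were 6.09 and 6.08 for siMPS1, against 4.48 and 4.09 for siNeg, and lys and phe differed by 1.52 and 1.45 in the same direction. The siNeg arrays at 48 h were thus the lowest of the 18 for dap. The hybridisation controls, which are added after labelling, differed less: bioB, bioC, bioD and cre differed by 0.02, -0.08, -0.27 and -0.05. Some ribosomal RNA probe sets also differed between the 2 groups, though not all of them set siMPS1 apart from the earlier arrays. On the middle probe set of 18S RNA the siMPS1 arrays read 10.86 and 10.99, against 8.55 and 8.70 on the siNeg arrays, 9.82 and 9.91 in Control at 48 h and 9.5 to 10.95 on the 12 earlier arrays. On the 5' probe set of 28S RNA they read 11.41 and 11.43, against 9.17 and 9.20 on the siNeg arrays and 10.31 and 10.42 in Control. On both probe sets the siNeg arrays at 48 h were the lowest of the 18. Both siMPS1 arrays at 48 h were the highest on the 28S probe set. On the 18S probe set the siMPS1 array at 10.86 lay below the highest earlier array. The 5' probe set of 18S RNA read 11.62 and 11.71 for siMPS1, within 10.53 to 11.91 on the 12 earlier arrays. The middle probe set of 28S RNA read 8.76 and 8.80, within 8.46 to 8.83 on the earlier arrays. The part of these patterns in the gene results was not tested, since each coincides with 1 or both groups and cannot be told apart from its siRNA; a model with the actin ratio as a covariate called 0 genes, with 442 at an unadjusted p under 0.05. The Control arrays at 48 h are given beside the main values, since siNeg stood apart in the spikes. Control cells were untransfected. Their actin differences (0.16 and 0.24) also lay well below those of siMPS1 (0.87 and 0.92), though slightly nearer to them than those of siNeg (0.10 and 0.14). A difference from Control therefore cannot be told apart from the actin pattern either. The siMPS1-Control comparison shares the siMPS1 arrays with the main one, and the siNeg-Control comparison shares the siNeg arrays. In them, 2153 genes (27.5%) were called between siMPS1 and Control, 1195 higher (15.3%) and 958 lower (12.2%), which became 868 higher and 1103 lower when each array was centred on its median. Between siNeg and Control 1012 genes (12.9%) were called, 534 higher (6.82%) and 478 lower (6.11%), or 410 higher and 493 lower with that centring.

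**Figure D2:**
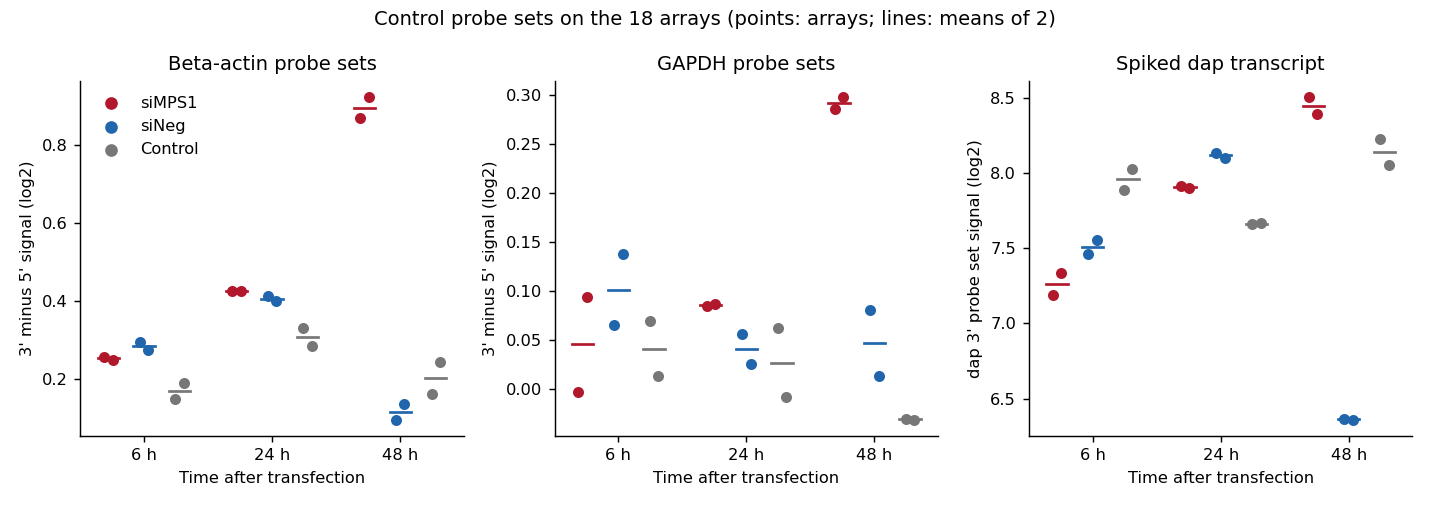
Beta-actin and GAPDH 3' minus 5' signal and the level of the spiked dap transcript (vertical axes, log2) on all 18 arrays at 6, 24 and 48 h (horizontal axis); points are arrays and lines are means of 2. The siMPS1 arrays at 48 h lie highest for both ratios, and the siNeg arrays at 48 h lie lowest for dap.

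TTK, the gene the siRNA was directed at, was lower at 48 h. It had 4.78 and 4.26 on the siMPS1 arrays, against 6.72 and 6.92 on the siNeg arrays and 6.57 and 6.91 in Control. The 2 groups did not overlap, and siNeg and Control lay together. TTK differed by -2.30 (SE 0.21, limma's adjusted p = 2.33e-07), or 20.3% of the siNeg level on the scale of signal + 3. HOXB3, TAF9B and PTMS fell by nearly as much, and the order depends on the pseudocount: with 1 in place of 3, HOXB3 (-2.8) and PTMS (-2.78), which lie at low signal, came before TTK (-2.41). Against Control the difference was -2.22. TTK had already fallen by 1.43 at 6 h and by 1.88 at 24 h, and its responses at 48 h and 24 h did not pass the test of their difference (-0.41, limma's adjusted p = 0.38).

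Genes of the checkpoint and the kinetochore, the protein structure that links chromosomes to spindle microtubules, were lower as a group. Of 34 tested members, 20 fell and 0 rose (58.8% lower, against 13.5% of all genes), with a median difference of -0.41. SPDL1, which recruits dynein to kinetochores, had 7.78 and 7.89 in siMPS1 cells, against 8.76 and 8.90 in siNeg cells, a difference of -0.99 (SE 0.08, limma's adjusted p = 5.85e-08). OIP5, which helps to load the centromeric histone, fell by 1.01. CENPU, a component of the inner kinetochore, fell by 0.77. SPC25, a subunit of the NDC80 complex that binds microtubules, had 6.36 and 6.56 in siMPS1 cells, against 7.31 and 7.58 in siNeg cells, and fell by 0.99. All 4 of these genes were also lower than in Control, at -0.62 for SPDL1, -0.81 for OIP5, -0.37 for CENPU and -0.78 for SPC25. BUB3, a checkpoint protein, fell by 0.66 on the probe set with the highest signal, but its 3 other probe sets read -0.10, -0.11 and -0.01, so its call rests on 1 probe set. Against Control, 12 members of the list fell and 1 rose, and siNeg cells themselves had 8 members above Control and 0 below.

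Mitotic kinases and cyclins gave the same picture, with 14 of 24 tested members lower, 1 higher and a median of -0.46. CCNB2, the B-type cyclin that activates CDK1, had 8.15 and 8.22 on the siMPS1 arrays, against 9.62 and 9.57 on the siNeg arrays and 9.43 and 9.36 in Control. These groups were far apart in relation to the spread of the arrays. The difference was -1.41 (SE 0.08, limma's adjusted p = 1.09e-09), or 37.6% of the siNeg signal. CCNB1, the main cyclin of mitotic entry, fell by 0.77, CDK1, its kinase, by 0.56, and PBK, a kinase active in mitosis, by 0.64. PLK1, the polo-like kinase of spindle assembly and cytokinesis, had 5.14 and 5.21 in siMPS1 cells, against 7.03 and 6.90 in siNeg cells and 5.93 and 5.72 in Control. Its fall of 1.79 therefore combined a siNeg level 1.14 above Control with a siMPS1 level that differed from Control by -0.65 (limma's adjusted p = 0.011). The member that rose was CDC25B (0.31), a phosphatase that activates CDK1. It was named after its value was seen, as were AURKA (-0.11), AURKB (-0.20) and CCNA2 (-0.12), which did not pass the test. Against Control, 11 members fell and 3 rose.

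Spindle and cytokinesis genes had 15 of 26 tested members lower and 0 higher, with a median of -0.31. PRC1, which bundles the microtubules of the central spindle, had 9.35 and 9.5 in siMPS1 cells, against 10.25 and 10.28 in siNeg cells and 9.88 and 9.97 in Control. It fell by 0.84 (SE 0.07, limma's adjusted p = 1.32e-07). The kinesin KIF20A, which is needed for cytokinesis, fell by 1.13, KIF4A by 0.73 and KIF18A, which dampens chromosome movements, by 0.90. DLGAP5, a microtubule-associated protein of the spindle, fell by 0.60. Each of the 5 was also lower than in Control, from -0.23 for KIF4A to -0.95 for KIF18A. For the whole list, 11 members fell and 2 rose against Control.

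Promoters of these genes are known for CCAAT boxes, bound by NF-Y, and for the cell cycle genes homology region (CHR), bound by the DREAM and MuvB complexes, and 2 are printed because their genes lay among the largest mitotic falls. In windows that run from upstream of the annotated start to just after it, searched on both strands, TTTGAA (the CHR letters) stood in 43 of 73 promoters of the tested members of the 3 mitotic lists (58.9%), against 9.61% of the promoters of all tested genes. CCAAT stood in 51 of them (69.9%), against 38.0%. The windows come from RefSeq on GRCh38.p14, where 73 of the 84 members and 6545 of the 7828 tested genes matched by symbol. Capitals mark both motifs in the CCNB2 promoter at chr15:59104896-59105195 and the PLK1 promoter at chr16:23678639-23678938, both on the plus strand. In each, TTTGAA began 29 bases before the annotated start, at offset -29. A match is a description of letters and no measure of binding.
CCNB2: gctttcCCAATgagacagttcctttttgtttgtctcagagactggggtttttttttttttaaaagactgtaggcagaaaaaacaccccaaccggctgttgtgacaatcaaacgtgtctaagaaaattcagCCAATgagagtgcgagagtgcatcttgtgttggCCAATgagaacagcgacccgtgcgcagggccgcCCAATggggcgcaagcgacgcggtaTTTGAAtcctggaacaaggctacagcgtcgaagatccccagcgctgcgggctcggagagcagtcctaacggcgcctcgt
PLK1: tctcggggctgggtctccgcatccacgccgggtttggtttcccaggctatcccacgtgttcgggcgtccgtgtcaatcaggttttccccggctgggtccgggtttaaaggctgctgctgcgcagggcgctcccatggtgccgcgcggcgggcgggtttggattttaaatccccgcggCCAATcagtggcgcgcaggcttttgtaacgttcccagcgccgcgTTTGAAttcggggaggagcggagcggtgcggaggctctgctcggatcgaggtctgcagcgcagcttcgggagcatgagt

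Genes of DNA replication and the G1 to S transition followed with 20 of 51 tested members lower, 0 higher and a median of -0.22. RFC3, a subunit of the clamp loader, had 7.25 and 6.89 in siMPS1 cells, against 8.04 and 8.10 in siNeg cells, a fall of 1.0 (SE 0.10, limma's adjusted p = 7.2e-07). CCNE2, a cyclin of S phase entry, fell by 1.28, and its siMPS1 minus Control difference was -1.35. PRIM1, the primase that starts new DNA strands, fell by 0.88. PCNA, the sliding clamp, fell by 0.51, and TYMS, which makes thymidylate, by 0.45. Both TYMS (0.34) and CDK1 (0.49) had been higher in siMPS1 cells at 24 h, so the sign of the response changed between the 2 times, by -0.79 and -1.04 (limma's adjusted p = 7.88e-06 and 1.69e-05). Against Control, 12 of the 51 fell and 7 rose. Without replicate 2 of siMPS1 the count of falls against siNeg was 13. Of the E2F and DREAM regulators, 4 of 15 fell and 1 rose. MYBL1, a MYB transcription factor, had 6.82 and 6.73 in siMPS1 cells, against 7.75 and 7.78 in siNeg cells, and fell by 0.99. E2F5, a repressor E2F, fell by 1.27 at a low signal, TFDP1, the partner of E2F proteins, fell by 0.30, and E2F3, an activator, rose by 0.56. E2F8 was called at -0.44, with limma's adjusted p = 0.049, and lost the call without either siMPS1 array or replicate 2 of siNeg.

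Cell cycle inhibitors and damage-response genes moved both ways, with 6 of 24 tested members higher, 3 lower and a median of 0.04. These are 25% higher and 12.5% lower, against 15.7% and 13.5% of all genes, so the share of falls was near that of all genes. CDKN1A, the CDK inhibitor p21, had 7.19 and 7.39 on the siMPS1 arrays, against 6.12 and 5.54 on the siNeg arrays and 6.25 and 6.21 in Control. Both siMPS1 arrays lay above all 4 others. The rise was 1.47 (SE 0.14, limma's adjusted p = 7.14e-07), or 2.76-fold, and 1.06 against Control. TRIAP1, an inhibitor of apoptosis, rose by 0.40. TNFRSF10B, the TRAIL receptor DR5, rose by 0.49 on its brightest probe set, but the mean of its probe sets differed by 0.01. CDKN3, a phosphatase that acts on CDKs, fell by 0.66, and DDB2, a damage recognition protein of nucleotide excision repair, by 0.68. DDB2 lost its call without replicate 2 of siMPS1 or of siNeg.

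Genes of protein folding and degradation in the endoplasmic reticulum (ER) were higher as a group in siMPS1 than in siNeg cells. Of 35 tested members, 19 rose and 3 fell (54.3% higher, against 15.7% of all genes), with a median of 0.32. HERPUD1, a membrane protein that assembles the ER degradation machinery, had 9.13 and 9.10 on the siMPS1 arrays, against 8.32 and 8.24 on the siNeg arrays and 8.96 and 8.91 in Control. The siNeg arrays were the low pair, and siMPS1 lay close to Control. The rise was 0.83 (SE 0.06, limma's adjusted p = 2.06e-08) against siNeg and 0.18 against Control, and the siNeg minus Control difference was -0.65. DNAJB9, a cochaperone of BiP, had 7.75 on both siMPS1 arrays, against 7.03 and 7.06 on the siNeg arrays and 7.71 and 7.54 in Control. It rose by 0.70 against siNeg, while its difference of 0.12 from Control did not pass the test. MANF, a secreted ER stress protein, rose by 0.58 and lay 0.24 above Control. CRELD2, another ER stress protein, rose by 0.65 and lay 0.45 above Control. CALR, the chaperone calreticulin, rose by 0.76 on its brightest probe set, but another of its probe sets fell by 0.96 and the mean of its probe sets differed by -0.07, so it has no settled direction. Against Control, 10 members rose and 5 fell, while in siNeg cells 1 member lay above Control and 10 below.

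ER stress genes are known for the ER stress elements ERSE and ERSE-II, bound by ATF6 and XBP1, and the promoters of 2 members that rose are printed with these elements in capitals. ERSE (CCAAT, then 9 bases of any kind, then CCACG) stood in 6 of the 33 promoters of tested ER folding members found in RefSeq (18.2%), against 0.153% of the promoters of all tested genes. ERSE-II (ATTGG, then 1 base of any kind, then CCACG) stood in 3 (9.09%), also against 0.153%. Both strands were searched, and the CCAAT letters of ERSE overlap the CCAAT box counted above. CRELD2, at chr22:49918384-49918683 on the plus strand of GRCh38.p14, held ERSE on the opposite strand at offset -80. HERPUD1, at chr16:56931892-56932191 on the plus strand, held ERSE-II at offset -117.
CRELD2: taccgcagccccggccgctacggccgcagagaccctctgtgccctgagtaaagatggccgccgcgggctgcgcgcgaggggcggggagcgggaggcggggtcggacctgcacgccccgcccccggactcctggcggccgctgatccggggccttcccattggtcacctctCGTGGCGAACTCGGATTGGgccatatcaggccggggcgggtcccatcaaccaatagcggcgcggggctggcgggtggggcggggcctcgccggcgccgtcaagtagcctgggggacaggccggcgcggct
HERPUD1: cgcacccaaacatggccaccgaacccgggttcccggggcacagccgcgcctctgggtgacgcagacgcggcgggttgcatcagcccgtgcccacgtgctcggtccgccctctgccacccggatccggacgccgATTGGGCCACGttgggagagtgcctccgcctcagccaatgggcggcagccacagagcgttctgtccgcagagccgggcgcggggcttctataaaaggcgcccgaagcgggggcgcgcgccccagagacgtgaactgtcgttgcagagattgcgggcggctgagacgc

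The ATF4 branch of the stress response, through which a kinase such as PERK or GCN2 raises amino acid supply genes and DDIT3, had 15 of 28 tested members higher, 4 lower and a median of 0.24. DDIT3, the transcription factor CHOP, had 8.01 and 7.92 in siMPS1 cells, against 6.94 and 6.76 in siNeg cells and 7.73 and 7.53 in Control. Its rise was 1.12 (SE 0.09, limma's adjusted p = 4.27e-08), of which 0.33 remained against Control. ATF3 rose by 0.77 against siNeg, but siMPS1 lay -0.21 from Control (limma's adjusted p = 0.081) because the siNeg arrays read 5.34 and 5.45, against 6.35 and 6.41 in Control. CEBPB, a transcription factor of the same family, rose by 0.55, and SLC38A2, a neutral amino acid transporter, by 0.45. Neither passed the test against Control (0.10 and 0.07). PSAT1, an enzyme of serine synthesis, ran against the list. It had 6.84 and 6.18 in siMPS1 cells, against 8.11 on both siNeg arrays and 8.08 and 7.95 in Control, and fell by 1.6 (SE 0.14, limma's adjusted p = 1.66e-07). Against Control, 5 members of the list rose and 6 fell, while siNeg had 2 above Control and 11 below.

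Antioxidant genes of the NRF2 type had 8 of 25 tested members higher, 4 lower and a median of 0.04. HMOX1, haem oxygenase, had the smallest p of all genes. It read 9.90 and 9.88 on the siMPS1 arrays, against 7.75 and 7.91 on the siNeg arrays and 9.56 and 9.41 in Control. The siNeg pair again lay apart from both other groups. HMOX1 rose by 2.06 (SE 0.08, limma's adjusted p = 5.68e-12), or 4.18-fold, against siNeg and by 0.40 against Control, and the siNeg minus Control difference was -1.66. MAFG, a small MAF partner of NRF2, rose by 0.80, and GCLC, the limiting enzyme of glutathione synthesis, by 0.57. PGD, an enzyme of the pentose phosphate pathway, fell by 0.64, and CAT, catalase, by 0.55, and both were about as low against Control, at -0.56 and -0.49.

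Autophagy and lysosome genes had 17 of 44 tested members higher, 3 lower and a median of 0.19. SQSTM1, the autophagy receptor p62, had 10.60 and 10.54 in siMPS1 cells, against 10.12 and 10.09 in siNeg cells and 10.30 and 10.38 in Control, and rose by 0.46 (SE 0.05, limma's adjusted p = 4.28e-06). WIPI1, which binds the forming autophagosome, rose by 0.89, and NPC1, the lysosomal cholesterol exporter, by 0.48. Neither WIPI1 (0.14) nor NPC1 (0.12) passed the test against Control. NPC2, which hands cholesterol to NPC1, went the other way. It had 9.42 and 9.48 in siMPS1 cells, against 10.17 and 10.07 in siNeg cells and 10.07 and 10.12 in Control, a fall of 0.67, and had already fallen by 0.79 at 24 h. GUSB, a lysosomal hydrolase, fell by 0.47.

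Transport between the ER and the Golgi had 20 of 47 tested members higher, 9 lower and a median of 0.22. TMED9, a cargo receptor of the p24 family, rose by 0.48, and KDELR3, a receptor that returns ER proteins, by 0.65. KDELR1, another receptor of that family, fell by 0.87. VAPA, an ER membrane tether, had 9.35 and 9.29 in siMPS1 cells, against 10.32 and 10.28 in siNeg cells and 10.36 and 10.47 in Control. Its fall of 0.98 (SE 0.06, limma's adjusted p = 3.8e-09) was present against Control too, at -1.09. BET1, a SNARE of this route, fell by 0.98 against siNeg and by 1.37 against Control. When the probe sets of each gene were averaged, the median of the list was 0.06 and 15 members rose.

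Sterol synthesis genes did not move as a group: 4 of 17 rose and 1 fell, with a median of 0.04. HMGCS1, the enzyme that makes HMG-CoA, had 7.86 and 7.84 on the siMPS1 arrays, against 6.57 and 6.53 on the siNeg arrays and 6.53 and 6.91 in Control. It rose by 1.30 (SE 0.11, limma's adjusted p = 1.64e-07) and by 1.13 against Control. INSIG1, which holds the sterol sensor in the ER, rose by 0.93, and SQLE, squalene epoxidase, by 0.34, with 0.19 and no call for the mean of its probe sets. NSDHL was called at 0.41 with limma's adjusted p = 0.033, and lost the call without any 1 of the 4 arrays and, at 0.25, with its probe sets averaged. MSMO1, the methylsterol oxidase, had 7.66 on both siMPS1 arrays, against 8.52 and 8.63 on the siNeg arrays and 8.74 and 8.83 in Control, a fall of 0.92. Its fall was larger at the earlier times, by 1.33 at 6 h and by 1.40 at 24 h, and its change between 24 h and 48 h passed the test at 0.48 (limma's adjusted p = 0.0048).

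NF-kB targets and cytokines had 8 of 24 tested members higher, 2 lower and a median of 0.29. CCL2, a monocyte chemokine, fell. It had 7.69 and 7.84 in siMPS1 cells, against 9.03 and 8.81 in siNeg cells and 9.13 and 9.26 in Control, a difference of -1.15 (SE 0.10, limma's adjusted p = 1.32e-07). BIRC2, an inhibitor of apoptosis, rose by 0.61 and IER3, an early response gene, by 0.50. IL11, a cytokine of the IL-6 family, rose by 0.54 on its brightest probe set, with 0.08 for the mean of its probe sets. IL6ST, the shared receptor of that family, fell by 0.76 on its brightest probe set, while 2 of its other probe sets rose by 0.62 and 1.04. The mean of the IL6ST probe sets was 0.17, so its direction is not settled.

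Immediate early and AP-1 genes had 10 of 29 tested members higher, 3 lower and a median of 0.15. DUSP5, a phosphatase of ERK, had 7.45 and 7.48 in siMPS1 cells, against 6.73 and 6.74 in siNeg cells and 6.86 and 7.0 in Control. It rose by 0.73 (SE 0.08, limma's adjusted p = 3.6e-06) and by 0.54 against Control. DUSP1, a related phosphatase, rose by 0.81, but by 0.47 and without a call when its probe sets were averaged, and MAFF, a small MAF protein, rose by 0.72. EGR1, a zinc finger factor induced by serum, fell by 0.96. Its siNeg arrays, at 7.26 and 7.30, lay above Control at 5.79 and 6.30, and the siMPS1 arrays, at 6.39 and 6.26, did not pass the test against Control (0.28, limma's adjusted p = 0.11).

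Matrix proteases and the plasminogen system had 7 of 24 tested members higher, 4 lower and a median of 0.01, which turned to -0.01 when arrays were centred on their medians. The 3 neighbouring collagenase and stromelysin genes MMP1, MMP3 and MMP10 rose together. MMP1 had 7.10 and 6.83 in siMPS1 cells, against 5.69 and 5.78 in siNeg cells and 6.70 and 6.58 in Control. MMP3 had 5.95 and 5.88 in siMPS1 cells, against 4.28 and 4.41 in siNeg cells and 4.6 and 5.31 in Control. The siMPS1 arrays were the highest of the 6 for both genes. MMP1, MMP3 and MMP10 rose by 1.23, 1.57 and 1.02 (limma's adjusted p = 5.41e-06, 9.89e-06 and 4.06e-06) against siNeg. Their differences from Control were 0.33, 0.96 and 0.41, and that of MMP1 did not pass the test. ADAM19, a membrane metalloprotease, fell by 0.69. ADAM12, a related gene, rose by 0.74 on its brightest probe set, with 0.16 and no call for the mean of its probe sets.

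Collagen, laminin and other matrix genes had 13 of 42 tested members higher, 6 lower and a median of 0.14. LAMC1, the laminin gamma chain of most basement membranes, rose by 0.52, FBN1, fibrillin, by 0.53, and PLOD1, a lysyl hydroxylase of collagen, by 0.57. All 3 lay above Control as well, by 0.41, 0.35 and 0.72. A second LAMC1 probe set read -0.08 and was not called, so the rise of LAMC1 was seen on 1 probe set only. A second FBN1 probe set read 0.37, also without a call. LOXL1, an enzyme that crosslinks elastin, had 6.73 and 6.74 in siMPS1 cells, against 7.90 and 7.99 in siNeg cells and 7.26 and 7.23 in Control, and fell by 1.21 (SE 0.09, limma's adjusted p = 5.1e-08). COL6A2, a collagen VI chain, fell by 0.57 against siNeg but rose by 0.42 against Control, since siNeg lay 0.99 above Control. Against Control, 21 members rose and 3 fell, and siNeg had 14 members above Control and 1 below.

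TGF-beta and BMP genes moved both ways, with 8 of 31 tested members higher, 8 lower and a median of 0.10, or -0.03 with the probe sets of each gene averaged. GDF15, a stress-induced secreted member of the family, had 8.72 and 8.65 in siMPS1 cells, against 6.97 and 6.76 in siNeg cells and 8.08 and 8.0 in Control. It rose by 1.82 (SE 0.08, limma's adjusted p = 1.66e-10), or 3.54-fold, and by 0.65 against Control; a second probe set of lower signal read -0.05. TGFBR2, the type II receptor, rose by 0.54. SMURF2, a ubiquitin ligase for the receptors, fell by 0.80, TGIF1, a corepressor of SMAD proteins, by 0.62, and ID3, an inhibitor of helix-loop-helix factors, by 0.37. The siNeg minus Control differences of TGFBR2, SMURF2, TGIF1 and ID3 were -0.03, 0.08, 0.00039 and -0.07.

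Growth factors, their receptors and the binding proteins of insulin-like growth factor had 11 of 34 tested members higher, 4 lower and a median of 0.19. IGF1R, the receptor of insulin-like growth factor, had 7.63 and 7.61 on the siMPS1 arrays, against 6.83 and 6.74 on the siNeg arrays and 6.40 and 6.39 in Control. It rose by 0.84 (SE 0.08, limma's adjusted p = 3.09e-07) and by 1.22 against Control. HBEGF, a ligand of the EGF receptor, had 7.53 and 7.66 in siMPS1 cells, against 6.45 and 6.57 in siNeg cells and 6.98 and 6.72 in Control, and rose by 1.08. PDGFC, a ligand of the PDGF receptor, and EFNB2, an ephrin, each rose by 0.48. EGFR rose by 0.53 on its brightest probe set, with 0.07 and no call for the mean of its probe sets.

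Tubulin and actin cytoskeleton genes had 11 of 33 tested members lower, 4 higher and a median of -0.14. ACTN4, an actin crosslinker, had 7.68 and 7.78 in siMPS1 cells, against 8.81 and 8.85 in siNeg cells and 7.96 and 7.95 in Control. Its fall of 1.10 (SE 0.07, limma's adjusted p = 6.42e-09) was one of 0.22 against Control, since siNeg lay 0.88 above Control. PFN1, an actin monomer binder, fell by 0.93 against siNeg and by 0.36 against Control. STMN1, which destabilises microtubules, fell by 0.64. The microtubule stabilisers MAP1B and MAP4 rose by 0.56 and 0.54, and MAP4 lay 0.78 above Control.

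Splicing factors and hnRNP genes had 21 of 61 tested members lower and 5 higher, with a small median of -0.07. SRSF4 had 8.68 and 8.54 in siMPS1 cells, against 9.18 and 9.35 in siNeg cells, a fall of 0.66 (SE 0.07, limma's adjusted p = 4.06e-06), and SRSF3, a related SR protein, fell by 0.49. SRSF3 had also fallen by 0.52 at each earlier time. SNRPB, a core protein of the spliceosomal particles, fell by 0.50 and HNRNPL by 0.47, while PRPF19, a spliceosomal ubiquitin ligase, rose by 0.51. Proteasome genes had 10 of 37 members lower, 1 higher (5 under quantile normalization) and a median of -0.06. PSMB2, a subunit of the catalytic core, had 10.24 and 10.26 in siMPS1 cells, against 10.73 on both siNeg arrays and 10.59 and 10.67 in Control, and fell by 0.48 (SE 0.05, limma's adjusted p = 2.61e-06). ADRM1, a ubiquitin receptor of the proteasome, fell by 0.56 but did not pass the test against Control (0.05, limma's adjusted p = 0.67). PSMD5, PSMD8 and PSMD12, which serve the regulatory particle, fell by 0.49, 0.39 and 0.38, but PSMD12 was not called with its probe sets averaged (-0.17).

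Among the lists not described member by member, cytosolic ribosomal protein genes had 4 of 52 lower, 0 higher and a median of -0.05, with 9 lower and 0 higher under median centring and 7 lower and 4 higher under quantile normalization. Heat shock genes had 9 of 20 higher and 3 lower, but 3 in each direction when the 4 arrays were fitted alone, and aminoacyl-tRNA synthetases 6 of 16 higher and 1 lower. Oxidative phosphorylation subunits had 13 of 57 lower and 7 higher (11 higher under quantile normalization), and mitochondrial ribosomal proteins 10 of 45 lower and 3 higher. Recombination and Fanconi genes had 8 of 28 lower and 1 higher, histones 6 of 19 lower and 2 higher, cohesin and condensin 5 of 18 lower and 2 higher, and the anaphase-promoting complex with separase 4 of 14 lower and 1 higher. Interferon-induced genes had 6 of 29 higher and 3 lower, which turned to 4 higher and 5 lower under either other scaling. Counts were also mixed for genes of hypoxia and glycolysis with 4 of 30 higher and 6 lower, YAP targets with 5 of 21 in each direction and integrins and adhesion with 6 of 29 in each direction. Apoptosis genes of the BCL2 and related families had 7 of 29 higher and 3 lower, or 5 and 4 with probe sets averaged. Cholesterol efflux and fatty acid genes had 6 of 20 higher and 2 lower. Solute carriers had 5 of 34 higher (14.7%) and 3 lower (8.82%), and ribosome biogenesis genes 5 of 35 higher (14.3%) and 3 lower (8.57%). Those rises were near the 15.7% of all genes, and the falls were under the 13.5% of all genes. Translation factors had 5 of 38 higher and 9 lower, nuclear pore and transport genes 7 of 40 higher and 9 lower, ubiquitin proteases 7 of 34 higher and 9 lower, and the RNA interference machinery 3 of 11 higher and 2 lower.

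**Figure D3:**
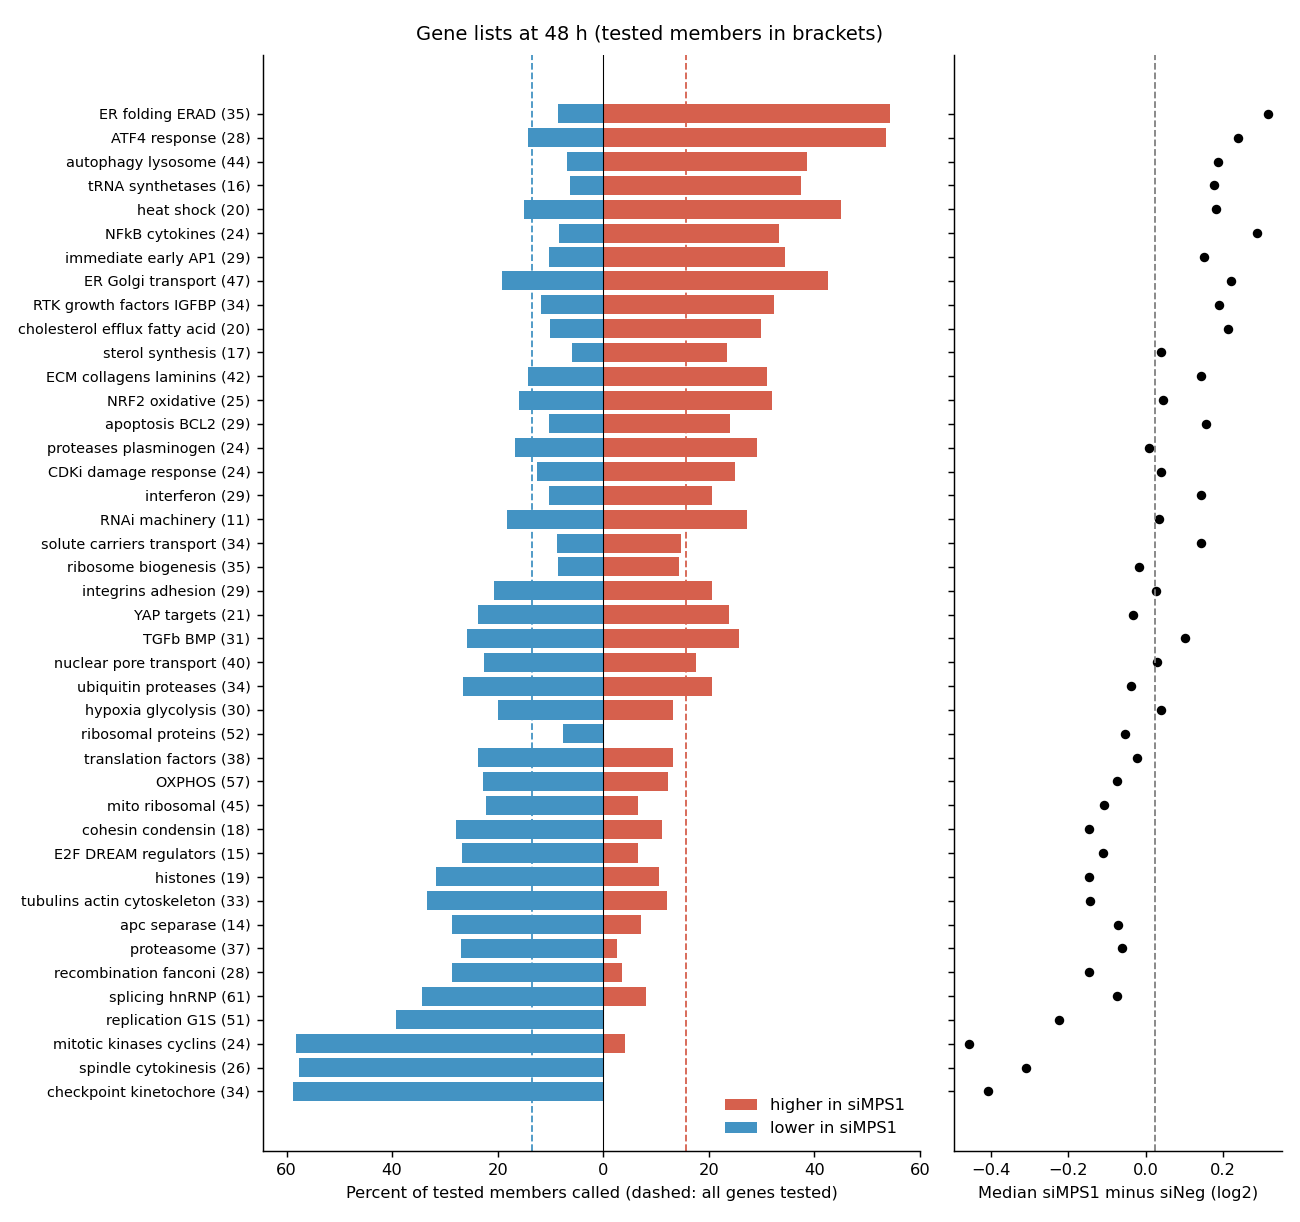
Share of the tested members of each gene list that was called higher (red, right of 0) or lower (blue, left of 0) in siMPS1 than in siNeg cells at 48 h, in percent, with the list's median difference in the right panel (log2); dashed lines show all 7828 genes (15.7% higher, 13.5% lower, median 0.03). ER folding genes lie at the top with 54.3% higher, and checkpoint and kinetochore genes at the bottom with 58.8% lower.

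Among the 10 largest rises outside the lists described above, AKR1C1, an aldo-keto reductase, had 8.87 and 8.82 in siMPS1 cells, against 7.13 and 6.86 in siNeg cells and 8.54 and 8.31 in Control. It rose by 1.84 (SE 0.11, limma's adjusted p = 2.08e-09) and by 0.42 against Control. AKR1C1 has near-identical paralogs, so its probe sets may read more than 1 gene. RASSF8 was called higher at low signals of 5.32 and 5.10 in siMPS1 cells, against 2.21 and 3.93 in siNeg cells, with 4.79 and 4.86 in Control. Its siNeg mean, 3.07, lay under the filter on low probe sets (a mean of 3.72 over the 18 arrays), so the size of its difference, 2.14, is uncertain. SPINK1, a trypsin inhibitor, rose by 1.58 and DHRS9, a retinol dehydrogenase, by 1.68, with siNeg minus Control differences of -1.30 and -1.40. CPEB1 (1.72), G0S2 (1.65), DEPP1 (1.58) and TAOK1 (1.57) also rose with siNeg means under that level, at 3.34, 2.83, 3.15 and 3.06. CPEB1 lost its call without replicate 1 of siMPS1 or of siNeg, with 1.13 to 2.32 over the arrays left out, and G0S2 and DEPP1 lost theirs without replicate 1 of siNeg. RASSF8 was 1.28 without replicate 1 of siNeg and 3.0 without replicate 2.

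Of the 10 rises with the smallest p, that of DIO2 was about as large against Control, while the other 9 were smaller against Control, from 0.18 for HERPUD1 to 0.86 for AHI1. DIO2, the deiodinase that activates thyroid hormone, had 8.94 and 8.81 in siMPS1 cells, against 7.33 and 7.36 in siNeg cells and 7.44 and 7.37 in Control. Its rise was 1.53 (SE 0.08, limma's adjusted p = 6.99e-10), and 1.47 against Control, on its brightest probe set. Its other probe sets rose by less, at 0.68, 0.54 and 0.52, and only the first of these was called. TAF15, an RNA-binding protein of the FET family, rose by 1.06 and by 0.63 against Control. SFN, the 14-3-3 sigma protein, rose by 1.01, DUSP10, a phosphatase of JNK and p38, by 1.29, and the receptor-like DCBLD2 by 0.94; siNeg lay below Control for each, at -0.57, -0.77 and -0.67. AHI1, a protein of the primary cilium, rose by 1.43 on its brightest probe set, but another fell by 0.95 and the mean of its probe sets was 0.24, without a call.

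Large falls differed in the same way in how siNeg stood to Control. ADORA2B, an adenosine receptor, had 6.36 and 6.58 in siMPS1 cells, against 8.16 and 8.30 in siNeg cells and 8.22 and 8.21 in Control. It fell by 1.76 (SE 0.10, limma's adjusted p = 6.99e-10) against siNeg and by 1.74 against Control. JPT1 had 8.51 and 8.57 in siMPS1 cells, against 9.85 and 9.78 in siNeg cells and 9.74 and 9.71 in Control, a fall of 1.28. SEPTIN10, a filament-forming GTPase, fell by 1.52, and a second probe set of it by 1.67. For ADORA2B, JPT1 and SEPTIN10 the siNeg minus Control differences were 0.02, 0.09 and -0.01. DDA1, a component of a CUL4 ubiquitin ligase, fell by 2.04 and EIF5A, a translation factor, fell by 1.02, and their differences from Control were -1.48 and -0.82; 2 other probe sets of EIF5A read -0.56 and -0.13. TAF9B, a TFIID subunit, had 4.80 and 4.83 in siMPS1 cells, against 6.99 and 7.22 in siNeg cells and 6.81 and 6.73 in Control, a difference of -2.29; its 2 dimmer probe sets read 0.90 and -0.24 and were not called. PKM, pyruvate kinase, had 9.55 and 9.60 in siMPS1 cells, against 10.85 and 10.73 in siNeg cells and 9.93 and 9.97 in Control. Its fall of 1.21 was thus one of 0.37 against Control, and a second PKM probe set read -0.12. The other large falls lay at low signal: HOXB3 at -2.30, PTMS at -2.28, HTR4 at -1.97, POLM at -1.77 and PRAF2 at -1.75. The siMPS1 means of HOXB3 (2.59), PTMS (2.56), HTR4 (2.79) and POLM (3.54) lay under the filter level, so the sizes and order of these falls are uncertain. POLM lost its call without replicate 2 of siMPS1 (-0.64) or without either siNeg array, and HTR4 without replicate 1 of siMPS1 or of siNeg.

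**Figure D4:**
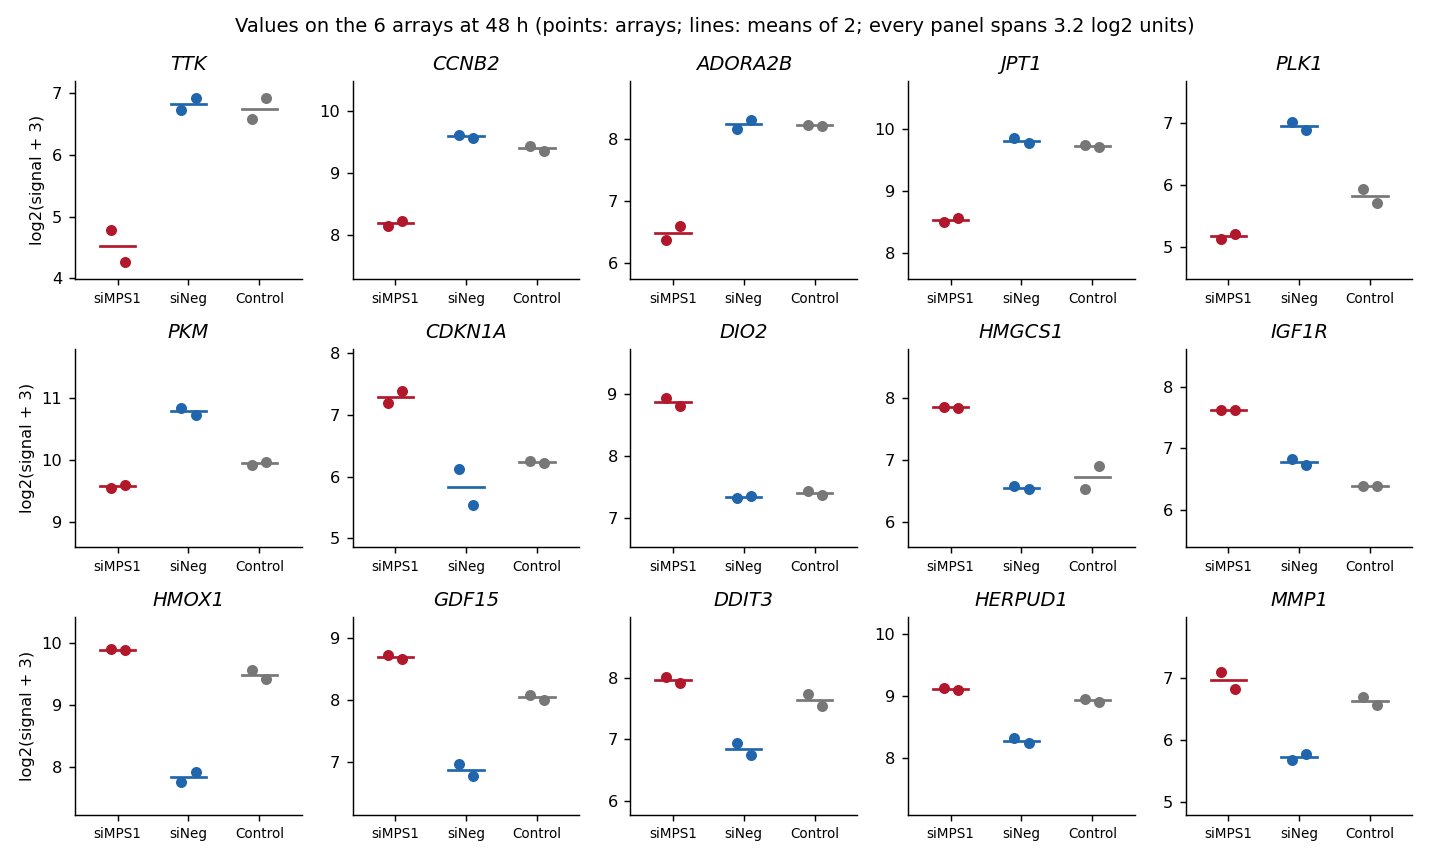
Signals of 15 genes at 48 h (vertical axis, log2(signal + 3)) in siMPS1, siNeg and Control cells (horizontal axis); points are arrays, lines are means of 2, and all panels span the same number of log2 units. In the top row TTK, CCNB2, ADORA2B and JPT1 are low in siMPS1 with siNeg near Control; in the bottom row HMOX1, GDF15, DDIT3, HERPUD1 and MMP1 are low in siNeg.

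The probe sets of 1 gene did not always move together. Among called genes there were 1420 further probe sets above the filter; 995 had the sign of the probe set used and 425 the opposite sign. Of these, 396 were called with the same sign and 77, in 72 genes, with the opposite sign. Whether such pairs read different ends or isoforms of their transcripts was not tested, since no probe positions were used; the 3' to 5' control ratios stand beside this count.

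The cells' own markers were present in part. Of 16 glial, mesenchymal and stem markers on the array, 11 were tested. VIM (11.71 and 11.88 in siMPS1 cells, against 12.08 and 11.82 in siNeg cells) and CD44 (11.31 and 11.36, against 11.38 and 11.44) were the highest. GFAP (4.09 and 3.2, against 4.19 and 3.9) was near the filter, and S100B, AQP4, OLIG2, SLC1A2 and CHI3L1 were under it. In this list 2 members rose and 3 fell. NCAM1, an adhesion molecule, rose by 1.0 and CRYAB, a small heat shock protein, by 0.92, while FABP7, a fatty acid binding protein of glia, fell by 0.76, NES, nestin, by 0.41 and SOX2 by 0.41. On its brightest probe set SOX2 lost its call without any 1 of the 4 arrays. Another SOX2 probe set above the filter fell by 1.98 and was called. It had 3.36 and 3.16 in siMPS1 cells, against 5.34 and 5.12 in siNeg cells. Its siMPS1 signals lay under the filter level (3.72), so the size of that fall is uncertain. The remaining SOX2 probe set, itself under the filter, read 0.36 without a call. Of the markers of other cell types, 2 of 8 blood markers passed the filter, HBB and CD34, neither called, with PTPRC, CD14 and LYZ under it. Among 12 epithelial markers, 3 passed the filter, KRT8, KRT18 and CLDN4, with EPCAM and CDH1 under it. For neurons 5 of 11 passed, led by NEFL at 10.68 and 10.75 in siMPS1 cells, against 11.09 and 11.02 in siNeg cells. The summed level of the lists, as log2 of the summed signal, was 12.86 and 12.94 in siMPS1 cells, against 13.10 and 12.98 in siNeg cells for the glial list, 10.18 and 10.27, against 10.15 and 9.98 for the epithelial list, 10.89 and 10.97, against 11.26 and 11.18 for the neuronal list, and 5.73 and 5.71, against 5.96 and 5.63 for the blood list.

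More genes were called between siMPS1 and siNeg at 48 h than at either earlier time. At 6 h 603 genes (7.7%) were called between siMPS1 and siNeg, 270 higher (3.45%) and 333 lower (4.25%). At 24 h 857 genes (10.9%) were called, 402 higher (5.14%) and 455 lower (5.81%). The difference between the responses at 48 h and 24 h was itself called for 1234 genes (15.8%), 699 upwards (8.93%) and 535 downwards (6.83%). Among checkpoint and kinetochore genes, 15 of 34 had a response that was called lower at 48 h than at 24 h, and 1 of 34 was called lower at 24 h itself. Of the replication genes 19 of 51 were called lower at 48 h than at 24 h. Among ER folding genes 16 of 35, and among ATF4 genes 15 of 28, had a response called higher at 48 h than at 24 h. The siNeg arrays at 48 h enter all of these counts. In siNeg at 48 h, 10 ER folding and 11 ATF4 genes were called below Control, with 1 and 2 above. In the checkpoint and replication lists 8 and 12 members were called above Control in siNeg, with 0 below. The part of siNeg in the later responses was not tested. DDIT3 differed by 1.32, CDKN1A by 1.28, HMGCS1 by 1.28 and PLK1 by -1.6 between the responses at the 2 times.

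Other genes differed clearly at 24 h already. VAPA fell by 0.58 at 6 h, by 1.31 at 24 h and by 0.98 at 48 h. For JPT1 the falls were 0.55, 1.43 and 1.28, for SEPTIN10 0.70, 1.39 and 1.52, and for ADORA2B 0.77, 1.33 and 1.76 at the 3 times. These 4 were called at each time, as was TTK. The responses of JPT1 and SEPTIN10 at 48 h and 24 h did not pass the test of their difference (limma's adjusted p = 0.29 and 0.56), while ADORA2B fell further between the 2 times, by 0.43 (limma's adjusted p = 0.038). CCNB2 was not called at 6 h (0.03), had fallen by 1.02 at 24 h, when CCNB1 had fallen by 0.23, and fell by a further 0.38 by 48 h (limma's adjusted p = 0.027). On their brightest probe sets, LAMC1 and FBN1 had risen at 24 h by 0.59 and 0.58, close to their rises at 48 h, and TGFBR2 by 0.68.

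**Figure D5:**
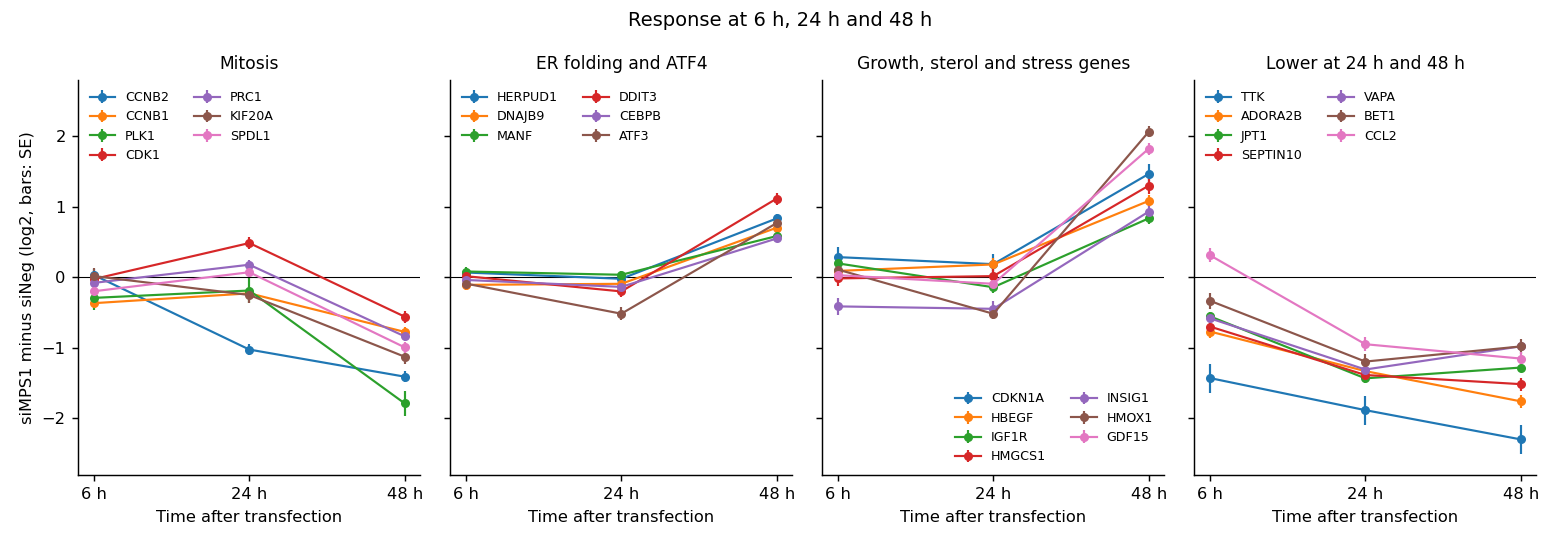
Difference between siMPS1 and siNeg (vertical axis, log2; bars are limma's SE) at 6, 24 and 48 h (horizontal axis, not to scale) for 27 genes in 4 panels. The ER folding and ATF4 genes were called higher at 48 h and at neither earlier time, whereas TTK, ADORA2B, JPT1, SEPTIN10 and VAPA lie below 0 at all 3 times.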

How the data were processed

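The 18 Affymetrix arrays were summarised as MAS5 signals, per the submitters' processing notes, and the deposited table holds them as log2 values of 22277 probe sets. The values ranged from -5.83 to 13.0, and 9.38% were below 0. The 2% trimmed mean of the linear signals was 100.1 on every array. Scanner files were not used here, and the number of arrays limits the precision.

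Of 22215 probe sets that are not controls, 19064 had 1 gene symbol in the platform annotation, 1043 several and 2108 none, and 19052 were matched to RefSeq with 0 symbols changed. Probe sets in the lowest 40% by mean (under 3.72) were dropped. Each gene was represented by its brightest remaining probe set, giving 7828 genes of 11963. Values were taken as log2(signal + 3) and fitted with limma 3.58.1 in R 4.3.3, with 1 mean for each of the 9 groups, an intensity trend and Benjamini-Hochberg adjustment. The fit had 9 residual degrees of freedom. Tested on simulated data with 200 of 7828 genes changed 2-fold, the comparison at 48 h recovered 78.5% of them and called 12 unchanged genes. The simulated noise was independent between arrays, and far fewer genes were changed than were called here. These counts therefore do not measure the false calls in the data. Replicate r was 0.933 to 0.948, and 0 pairs of arrays were identical.

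Members and gene lists were chosen with earlier results of these data known. The text names TTK; the 10 largest rises and falls and the 10 rises and falls with the smallest p among called genes whose arrays did not overlap; the 5 members with the smallest p in each described list; and the 5 largest called differences of each sign between the responses at 48 h and 24 h. Genes named after their values were seen are marked as such. Alternatives covered the pseudocount, scaling, filter, probe set rule, trend, replicate block, arrays fitted, the actin ratio as a covariate and each array left out.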

Additional observations from a re-analysis of the deposited data

Results flagged for a closer look

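The responses to siMPS1 at 48 h and at 24 h differed for 1234 genes by limma's test of the difference (15.8% of those tested), with 5 genes named in each direction. RASSF8 had a difference of 2.72 (limma's adjusted p = 0.00115), with a response of 2.14 at 48 h, where its siNeg mean of 3.07 lay under the filter on low probe sets (3.72), and -0.58 at 24 h. HMOX1 had 2.58 (limma's adjusted p = 4.65e-11), with a response of 2.06 at 48 h and -0.52 at 24 h, both called. The siMPS1 mean of HMOX1 was 9.75 at 24 h and 9.89 at 48 h, so most of this difference lay in siNeg. Its siNeg mean was 10.26 at 24 h and 7.83 at 48 h, with 9.48 in Control at 48 h. RHOBTB2 differed by 2.66, FHL3 by 2.53 and CPEB1 by 2.31 (limma's adjusted p = 0.0166, 0.0132 and 0.0274), at low signals, with siNeg means at 48 h of 3.72, 3.06 and 3.34, so the sizes are uncertain. RHOBTB2 and CPEB1 lost the call without an intensity trend (limma's adjusted p = 0.0501 and 0.0641), and RHOBTB2 and FHL3 when the arrays of these groups were fitted alone (0.0563 and 0.0645).

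In the other direction TAF9B differed by -2.45 (limma's adjusted p = 3.57e-08), with a response of -2.29 at 48 h and 0.15 at 24 h. HTR4 differed by -2.34, PTMS by -2.27, LGR5 by -2.07 and DCAKD by -1.92 (limma's adjusted p = 0.0472, 0.00444, 0.0167 and 0.0015). The siMPS1 means of HTR4, PTMS and DCAKD at 48 h (2.79, 2.56 and 3.57) lay under the filter level, so these sizes and their order are uncertain. LGR5 lay under it in both groups at 48 h (2.22 in siMPS1, against 2.96 in siNeg) and in siNeg at 24 h (2.44), and passed the filter through the arrays at 6 h (5.87 in siMPS1, against 6.06 in siNeg). Its response at 48 h, -0.74, was not called, and its call here was lost when the arrays of these groups were fitted alone (limma's adjusted p = 0.125). HTR4 lost its call under 6 other settings. Apart from the fit with the actin ratio as a covariate, which called 0 genes, 5 of the 10 genes, RHOBTB2, FHL3, CPEB1, HTR4 and LGR5, lost the call under at least 1 other setting, and the same 5 with at least 1 array left out.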

How the results depend on the processing

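The count of 2284 genes between siMPS1 and siNeg at 48 h was 1977 to 2308 under the other pseudocounts, scalings, filters, probe set rules, variance settings and choices of arrays, and 1655 to 1754 with 1 array left out. It was 169 with a fold change of at least 2 also required. The comparison of siMPS1 with Control gave 1415 to 1515 with 1 array left out, and siNeg with Control 440 to 868, the lowest without replicate 1 of siNeg; without replicate 1 or 2 of Control it was 507 or 612. The count for 48 h minus 24 h was 850 to 1158 with 1 array left out. TTK stayed called with 1 array left out, at -2.56 to -2.04.

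The replicate block gave 2266 genes, 1244 for 48 h minus 24 h, 2150 against Control and 995 for siNeg against Control. Of the named calls it ended those of E2F8 (limma's adjusted p = 0.0524) and of HTR4 for 48 h minus 24 h (0.055), and no other. Replicate numbers did not pair the arrays (correlations of deviations -0.0876, -0.0195 and -0.00667).

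With the actin 3' to 5' ratio as a covariate, which is nearly the same variable as siMPS1 at 48 h, 0 genes were called between siMPS1 and siNeg (442 at an unadjusted p under 0.05), 0 for 48 h minus 24 h (434), 0 against Control (473) and 286 between siNeg and Control. TTK was then -3.85 (limma's adjusted p = 0.865). In that fit 23 of 135 named genes changed sign, none of them called: RASSF8 -0.95, CPEB1 -3.45, PTMS 0.44, POLM 6.20, CENPU 0.57, CDK1 0.26, RFC3 0.13, CCNE2 0.012, TYMS 0.16, E2F3 -0.29, E2F8 0.037, CDKN3 0.32, CALR -1.24, PSAT1 0.55, CAT 0.11, HMGCS1 -0.14, INSIG1 -0.45, PLOD1 -0.62, COL6A2 0.084, MMP3 -0.35, BET1 0.18, NES 0.14 and SOX2 0.56. For 48 h minus 24 h RASSF8 became -0.29, FHL3 -2.19, CPEB1 -2.73 and PTMS 0.38. With probe sets averaged, CALR became -0.066 and IL6ST 0.17 at 48 h, and 9 other named genes lost their call at 48 h. HTR4 lost its call for 48 h minus 24 h in that setting (limma's adjusted p = 0.0534). The cause was not tested.

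With 2 arrays a group, and both groups at 48 h standing apart in control probe sets, differences between the siRNAs and between array preparations cannot be told apart.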
